A study of Mus musculus with 12 samples.

Results

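The peaks described here are m6A peaks that lie in exons of mRNAs but outside the untranslated regions (UTRs). They are the entries of the deposited peak lists whose assigned transcript is protein-coding and whose annotated region is an exon, and the exon number and the number of exons of the transcript were read from the same annotation. The rule found 3174 such peaks on 2114 genes in the list of the OVA group and 3193 on 2148 genes in the list of the PBS group, 6367 of 53394 deposited peaks in all. Because the annotation ranks UTRs above exons, a peak that touches a UTR of any transcript is, as a rule, not among them.

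N6-methyladenosine (m6A) is the most common internal modification of mRNA. A writer complex built around METTL3 and METTL14 places it while the RNA is made, FTO and ALKBH5 can remove it, and reader proteins such as those of the YTH family bind it and act on splicing, translation and decay. In mRNAs the mark is best known from the region around the stop codon and from unusually long internal exons.

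Lung tissue came from female BALB/c mice aged 6 to 8 weeks. Mice of the OVA group were sensitized with ovalbumin in alum on days 0 and 7 and inhaled an aerosol of 3% ovalbumin for 30 min a day from day 14 to day 20, mice of the PBS group received PBS instead, and lungs were taken on day 21. From 3 mice per group, fragments pulled down with an antibody against m6A (IP) and untreated fragments of the same RNA (input) were sequenced, 12 libraries in all. The deposit holds 1 peak list per group without values of single mice, so no difference between the lists has a replicate check and none was tested, and read depth is unknown from the lists. Whole lung is a mixture of cells, and in such bulk samples fewer cells of a type and less RNA per cell cannot be told apart. The lists carry no RNA levels. For whether a peak was found, and for its p value, a stronger mark and a more abundant mRNA cannot be told apart either. The ratio of IP over input takes the input into account, but the lists give no input level to check it.

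Of 19 lung marker genes, 16 had a peak of some kind in the lists, among them the club cell gene Scgb1a1, the ciliated cell gene Foxj1 and the alveolar type 1 cell gene Ager. Only Sftpc, Scgb3a2 and Epcam had none. An mRNA peak was present on 8 of the 19 markers. Of these 8, 12.5% had an exon peak under a firm gene name, against 30.7% of all genes with an mRNA peak. Of these markers, Sftpa1, which encodes a surfactant protein, was the only one with an mRNA exon peak in the peaks with a firm gene name, in exon 5 of 5, where the fold enrichment was 1.56 (OVA) and 1.54 (PBS). Albumin (Alb) and the other liver markers had no peak of any kind.

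Exon peaks made up 27.8% of the 11419 mRNA peaks of the OVA list (95% Wilson interval 27.0% to 28.6%) and 28.8% of the 11088 of the PBS list (28.0% to 29.6%). All intervals given here cover counting error only, and peaks of the same gene are not independent. An FDR under 0.05 was reached by 3102 of the OVA exon peaks (97.7%) and by 3100 of the PBS exon peaks (97.1%). Among all mRNA peaks the shares were 98.3% and 98%. Against the 3' UTR peaks the difference was -1.09 percentage points for OVA (95% Newcombe interval -1.71 to -0.53) and -1.58 for PBS (-2.27 to -0.95), so exon peaks passed this threshold slightly less often.

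Fold enrichment, the ratio of IP over input that the authors' caller gives each peak, had a median of 5.39 in the OVA exon peaks (quartiles 2.93 and 10.6) and of 5.10 in the PBS exon peaks (2.83 and 9.94). The 3' UTR peaks of the same lists had medians of 6.67 and 6.42, and the 5' UTR peaks 5.48 and 5.58. A fold enrichment of at least 10 was found in 854 OVA exon peaks (26.9%) and 795 PBS exon peaks (24.9%), against 36.8% and 34.6% of the 3' UTR peaks. In both lists the exon peaks were thus weaker by their median than the 3' UTR peaks and close to the 5' UTR peaks.

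The exonic blocks of an exon peak added up to a median of 300 bp in the OVA and 298 bp in the PBS list. This was between the 242 bp of 5' UTR peaks in both lists and the 408 bp and 391 bp of 3' UTR peaks. Peaks joined over more than 1 exonic block were 719 of the OVA exon peaks, or 22.7% (95% Wilson interval 21.2% to 24.1%), and 594 of the PBS exon peaks, or 18.6% (17.3% to 19.99%). Such joined peaks were less common here than in the 5' UTR class, with a difference of -13.1 percentage points in the OVA list (95% Newcombe interval -15.5 to -10.7) and -15.8 in the PBS list (-18.2 to -13.4). They were more common than in the 3' UTR class, by 3.69 points (1.94 to 5.47) and 2.15 points (0.51 to 3.83).

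Along the transcript, inner exons held the largest share of the peaks. In the OVA list 1575 peaks lay in an inner exon (49.6%, 95% Wilson interval 47.9% to 51.4%), 935 in the last exon (29.5%), 360 in the first exon (11.3%) and 304 in the exon of a single-exon transcript (9.58%). The PBS list held 1558 peaks in inner exons (48.8%), 958 in last exons (30%), 374 in first exons (11.7%) and 303 in single exons (9.49%). The order of the classes was the same in both lists. These shares differed in a subset of the peaks, and the cause was not tested. The annotated exon often belongs to another transcript than the assigned one. Where only the 788 OVA and 819 PBS peaks in an exon of the assigned transcript itself were kept, a choice made after seeing the data, inner exons fell to 28.6% and 27.8% and single exons rose to 22.8% and 21.5%.

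The median peak lay in exon 3 of a transcript with a median of 6 exons, in both lists. Over the transcripts with more than 1 exon, the final 25% of the exon order held 1212 of 2870 OVA peaks (42.2%) and 1238 of 2890 PBS peaks (42.8%). The first 25% held 27.0% and 27.9%, and each 25% between them from 14.3% to 16.0%. A last exon always falls in the final 25%, and in transcripts of few exons most exons fall at an end. How far these shares follow from the counting was not tested. The exon with the highest number was exon 154, in Ttn, in both lists.

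Single exons had the strongest peaks by their median in both lists, 6.46 in the OVA and 6.66 in the PBS list, and inner exons the weakest, 4.96 and 4.46. First exons had medians of 6.33 and 5.50, and last exons of 5.56 and 5.70. Inner exons had the widest peaks, with summed blocks of 330 bp and 316 bp at the median, and 37.0% and 30.2% of their peaks spanned more than 1 block. In last exons 2.67% and 1.88% of the peaks did so. A joined peak carries the number of only 1 of its exons. On Fto a PBS peak of 2 blocks was labelled exon 2, while the OVA peak with the same end and 1 block was labelled exon 3. Where the lower number is given, a joined peak that reaches the last exon counts as inner. How far the class shares, the widths and the shares of joined peaks follow from this labelling was not tested. The orders of the classes did not all hold in subsets chosen by label. Where all 3 gene labels were the same, single exons had medians of 5.70 and 5.43, first exons of 5.88 and 5.43 and last exons of 5.40 and 5.88. In exons of the assigned transcript the inner exons had 272 bp and 242 bp, below the 301.5 bp and 302 bp of first exons.

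A peak carries 3 gene labels, namely the gene of the nearest transcript start, to which the authors assign it, the gene of the annotated exon, and the gene whose model the caller used (the called gene). All 3 were the same for 2625 OVA exon peaks (82.7%) and 2640 PBS exon peaks (82.7%), and the genes named below come from these unless another label is given. The annotated exon lay in another gene than the assigned one for 539 OVA peaks (17.0%) and 544 PBS peaks (17.0%). The called gene was the gene of the exon for 99.1% and 99.0% of the peaks, so that the nearest start was the label that most often stood apart. Of the 539 OVA peaks, 335 lay at a negative distance from the assigned start, upstream of it, and 308 had an exon gene that RefSeq lists as protein-coding, while 78 had one that it lists as a long noncoding RNA.

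Examples show how far such labels can reach. An OVA peak assigned to Kremen1, a receptor for Wnt antagonists of the Dickkopf family, lay in exon 7 of 9 of Znrf3, which encodes a membrane ubiquitin ligase of the same pathway, at chr11:5280897-5283344, upstream of the assigned start (distance -21786 bp). Its fold enrichment was 70.7, and the overlapping PBS peak had 14.4. A PBS peak assigned to Nfil3, a transcription factor of innate lymphoid cells, lay in exon 9 of 9 of the receptor tyrosine kinase gene Ror2, at a distance of -130210 bp. An OVA peak with a fold enrichment of 72.6 was assigned to the growth factor gene Tgfb3 and lay in exon 1 of 3 of the predicted gene Gm48008. Its distance to the assigned start was 0 bp. An annotation as mRNA exon thus describes a place in the genome and not always the mRNA of the assigned gene. The transcript of the annotated exon had a biotype in the lists for 1261 OVA and 1293 PBS peaks, and 90.1% and 90.2% of these transcripts were protein-coding, so that the label exon is not the same as coding sequence.

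The exon peaks with the highest fold enrichment in the OVA list were those of Jrk, which encodes a nuclear DNA-binding protein, and of the giant scaffold gene Ahnak2. The Jrk peak, in exon 2 of 2 at chr15:74705913-74706481, had a fold enrichment of 138, and the overlapping PBS peak had 12.3. The Ahnak2 peak, in exon 7 of 7 at chr12:112782353-112782712, had 134, against 38.0 in the PBS list. Vash2, which encodes a tubulin carboxypeptidase, had 110 in exon 5 of 8 at chr1:190960155-190966209, against 8.88. For the cannabinoid receptor gene Cnr1 the values were 106 and 11.8, in exon 2 of 2 at chr4:33944605-33944995. The 10 strongest OVA peaks went on with Xkrx (75.5), the cancer antigen gene Cage1 (70.8), the giant cadherin gene Fat2 (64.7), Lzts3 (60.0), Rnf113a1, a ring finger protein gene (54.9), and the zinc finger gene Zfp97 (49.8). Each of these 10 had an overlapping PBS peak in an mRNA exon, and each of those had the lower fold enrichment.

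In the PBS list the strongest exon peak was that of Lrrc8d, which encodes a subunit of the volume-regulated anion channel. It lay in exon 2 of 2 at chr5:105728798-105729128, with a fold enrichment of 224, and the overlapping OVA peak had 49.5. A second stretch of exon 7 of Ahnak2 followed, at chr12:112781158-112781518, with 67.1 against 37.0 in the OVA list. Naa30, which encodes the catalytic subunit of an amino-terminal acetyltransferase, had 58.7 against 31.4. Ache, which encodes the enzyme that breaks down acetylcholine, had 52.3 in exon 2 of 5 at chr5:137290194-137290791, against 20.5. Igsf10, a secreted immunoglobulin superfamily gene, had 52.7 against 35.5, and Zfp27 had 52.8 against 19.9. Kcna5, which encodes a voltage-gated potassium channel, had 48.4 in the only exon of its transcript at chr6:126534010-126534399, and no OVA peak overlapped it. The tripartite motif gene Trim29 had 41.5 in exon 1 of 9, where the overlapping OVA peak, with 35.9, was labelled 5' UTR. Peaks picked as the highest of a list have, by that choice, a lower partner in most cases, so the lower values opposite them are a description only.

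By exon class, the strongest first-exon peaks of the OVA list were those of Agap2, a regulator of small GTPases, with 33.4 (16.3 in the PBS list), the DNA translocase gene Ercc6l with 31.2 (14.2) and the glutamate receptor gene Gria3 with 28.2 (6.86 under another biotype). In the PBS list they were Trim29, the T cell transcription factor gene Nfatc2 with 32.6 (17.5 in the OVA list, labelled 5' UTR) and the inner nuclear membrane gene Lemd3 with 31.4 (36.1 under another label). Single-exon peaks were led in the OVA list by Rnf113a1, by Adam6b with 42.1 and no PBS peak, and by Ttc30a2 with 38.0 (20.7). After Kcna5, they were led in the PBS list by Tmem121b with 38.5 (3.85 in the OVA list) and Zfp579 with 35.5 (19.7). The highest last-exon values after those of Lrrc8d and Ahnak2 in the PBS list belonged to Gpr179, an orphan receptor gene, with 38.7 (15.4).

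Most genes carried 1 exon peak, 1497 of 2114 in the OVA list (70.8%) and 1555 of 2148 in the PBS list (72.4%), while 217 and 215 genes carried at least 3. The genes with the most exon peaks over both lists encode very large proteins. Muc16, a membrane mucin of wet epithelia, led them with 9 peaks in the OVA and 20 in the PBS list, between chr9:18636799 and chr9:18660891. All lay in exons 2 and 4 of 78. The 9 OVA peaks had fold enrichments from 4.32 to 9.97 and all overlapped PBS peaks, whereas 10 of the 20 PBS peaks overlapped none of the OVA list and 3 of the 20 missed the FDR threshold. The PBS list thus covered more of the same exons, with fold enrichments from 1.63 to 7.06. For comparison, 18.1% of all PBS exon peaks and 14.4% of all PBS mRNA peaks overlapped no OVA peak.

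Ahnak2 followed with 11 OVA and 13 PBS peaks, each with a partner in the other list, and medians of 12.7 and 12.4. The zinc finger homeodomain gene Zfhx4 had 10 and 13 peaks, with medians of 11.1 and 6.58. Fat2 had 11 and 10, and Zfp469, a zinc finger gene tied to corneal collagen, had 10 and 11 that all lay in exon 2 of 2. On each of these 4 genes several peaks lay side by side in the same exon in both lists.

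Plec, which encodes the cytoskeletal linker plectin, had 9 OVA and 8 PBS peaks, most of them in exons 32 and 33 of 33. Its PBS peak at chr15:76175531-76178351, with summed blocks of 2821 bp and a fold enrichment of 13.7, was the widest of the PBS list, and the OVA peak there had 16.0. Among the widest OVA peaks were those of the secreted airway mucin gene Muc5ac (3176 bp), of nestin, an intermediate filament gene (Nes, 2910 bp, 17.2 against 12.6), of Tnrc6c, a partner of Argonaute in microRNA silencing (2878 bp, 21.7 against 17.6), and of the mismatch repair gene Msh6 (2851 bp, 15.8 against 9.28). In the PBS list Plec was followed by Tnrc6c (2818 bp), the nuclear receptor corepressor gene Lcor (2789 bp, 19.1 against 23.6 in the OVA list), Igsf10 (2400 bp) and the protocadherin gene Pcdhga10 (2217 bp, 13.4 against 11.9).

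Of the genes with an exon peak, 978 OVA genes (46.3%) and 997 PBS genes (46.4%) had no mRNA peak in a UTR. An mRNA peak in the 3' UTR was present as well on 869 OVA genes and 879 PBS genes. In these the strongest exon peak had a higher fold enrichment than the strongest 3' UTR peak for 329 OVA genes (37.9%) and 307 PBS genes (34.9%). The medians of the strongest peaks were 6.70 in exons against 10.3 in the 3' UTR for OVA genes, and 6.15 against 10.5 in the PBS list. Against the 5' UTR the exon peak was the stronger for 234 of 469 OVA genes and 235 of 467 PBS genes. By assigned gene, as across the lists, exon peaks were weaker than 3' UTR peaks and on a level with 5' UTR peaks. All exon peaks were counted here under their assigned gene, and 17.0% of them in each list lay in an exon of another gene. The comparison is thus not always within the same mRNA, and the number of peaks per class was not held equal.

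The lists were compared by the overlap of exonic blocks, with at least 1 bp and any deposited peak counted. Of the OVA exon peaks, 681 (21.5%) overlapped no PBS peak, against a background of 18.3% of all OVA mRNA peaks. Of the PBS exon peaks, 579 (18.1%) overlapped no OVA peak, against 14.4% of all PBS mRNA peaks. These numbers depend on the rule. An overlap of 50% of both peaks left 1256 (39.6%) and 1249 (39.1%) without a partner, against 31.3% and 29.0% of all mRNA peaks. Identical coordinates left 2956 (93.1%) and 2975 (93.2%), against 89.8% and 89.5% of all mRNA peaks. Under the 1 bp rule the shared share was 78.5% (95% Wilson interval 77.1% to 79.9%) in the OVA and 81.9% (80.5% to 83.2%) in the PBS list. It lay below that of 3' UTR peaks by a difference of -7.16 percentage points in the OVA list (95% Newcombe interval -8.86 to -5.49) and of -7.94 points for PBS peaks (-9.51 to -6.41). It lay above that of 5' UTR peaks by 2.94 points in the OVA list (0.70 to 5.21), while in the PBS list the difference of 2.01 points had an interval that included 0 (-0.12 to 4.18). This order turned under stricter rules. With an overlap of 50% of both peaks, 60.4% of OVA exon peaks and 63.7% of OVA 5' UTR peaks were shared, and 60.9% and 68.1% of the PBS peaks. With identical coordinates the values were 6.87% and 10.7% (OVA) and 6.83% and 11.4% (PBS).

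The gap to the 3' UTR was present among strong peaks as well. Within a fold enrichment of at least 10 the difference was -8.42 points in the OVA list (-11.0 to -6.05) and -11.4 in the PBS list (-14.2 to -8.82). From 3 to 10 it was -5.13 (-7.35 to -2.98) and -7.17 (-9.33 to -5.09), and under 3 the intervals included 0 (-4.21, from -8.45 to 0.02, and -3.15, from -6.81 to 0.43). Peak width was not held equal in this split, and the cause of the gap was not tested. By exon class, the shared share in the PBS list was highest in inner exons (85.8%, 84.0% to 87.5%) and lowest in single exons (73.3%, 68.0% to 77.9%). In the OVA list the classes ranged from 76.3% in single exons to 80.8% in first exons.

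The overlapping peak was most often of the same kind. For 2213 of the 2493 shared OVA peaks (88.8%) the best overlapping PBS peak was an mRNA exon peak, for 120 a 3' UTR peak, for 92 a 5' UTR peak and for 68 a peak of another biotype. For the 2614 shared PBS peaks the numbers were 2246 (85.9%), 165, 124 and 79. Where both were mRNA exon peaks, the annotated exon was the same in 92.5% of the OVA cases and 92.4% of the PBS cases. Overlapping peaks can thus carry different labels in the lists, and most of these also differ in extent.

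Peaks that were each other's best overlap formed 2076 pairs of mRNA exon peaks. Their larger edge difference had a median of 60 bp, and 216 pairs had the same start and end. The OVA blocks were the wider in 1087 pairs and the PBS blocks in 673. Across the 2076 pairs, the log10 fold enrichments of the lists had a Pearson's r of 0.77 and the fold enrichments a Spearman's rho of 0.79, as a description of peaks that share genes and libraries. The median fold enrichment of the pairs was 6.33 in the OVA and 5.495 in the PBS list. A value of at least 10 was reached by 622 of their OVA peaks and 531 of their PBS peaks. Each peak was also placed by its percentile among the mRNA peaks of its own list. The percentiles of a pair differed by a median of 8.45 points, 1173 pairs (56.5%) lay within 10 points, and 200 lay more than 30 points apart, 120 with the higher place in the OVA and 80 in the PBS list. Most of these 2076 pairs thus ranked within 10 points of each other.

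The largest shift toward the OVA list was that of Zswim9, a zinc finger gene, in exon 2 of 2 at chr7:13276787-13276998. Its fold enrichment of 26.2 stood at percentile 95.6 of the OVA list, and 2.09 at percentile 10.3 of the PBS list. Ccdc96, a gene of ciliated cells, had 20 against 2.66, Zfp457 20 against 3.19, Rnf113a1 54.9 against 4.44, and the hyaluronidase gene Hyal3 28.2 against 4.44. Among the 10 largest shifts in this direction were also Bex2 (10.3 against 2.05), Zfp174 (16.4 against 3.17) and Ankmy1 (18.5 against 3.78). In each of the 10 pairs apart from that of Bex2, the OVA blocks were the wider. Some of these values recur on unrelated genes. The OVA peak of Ankmy1 had the same fold enrichment and log10 p, 18.5 and -5.35, as OVA peaks of Foxc1 and Frem2. That of Hyal3 had the same values, 28.2 and -8.59, as an OVA peak of Pcdhb15. The lists hold no read counts, so whether such high ratios rest on few reads was not tested.

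The largest shift toward the PBS list was that of Klhl41, which encodes a kelch protein of striated muscle, in exon 1 of 6. Its peak had a fold enrichment of 19.7 at chr2:69670565-69670982 in the PBS list, at percentile 92.1, and of 2.02 over 62 bp in the OVA list, at percentile 8.97. Gon4l, which encodes a nuclear regulator of transcription, had 56.8 against 3.25 in exon 2 of 32. The zinc finger gene Zfp711 had 32.1 against 3.76 in exon 9 of 9, Tmem121b 38.5 against 3.85, the pregnancy-associated metalloproteinase gene Pappa2 31.1 against 4.28, and the acetyl-CoA synthetase family gene Acss3 15.8 against 2.74. H2-M5, a nonclassical histocompatibility gene, had 26.6 against 4.43 in exon 1 of 4. The OVA peaks of Klhl41 and Acss3 missed an FDR of 0.05, with log10 values of -1.25 and -1.20. In 8 of the 10 pairs with the largest shifts in this direction the PBS blocks were the wider. The pairs were selected for their difference, and no test of it is given.

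Under the 1 bp rule, the peaks found in a single list were weak and narrow beside the shared ones. The 681 OVA peaks had a median fold enrichment of 3.03 and summed blocks of 151 bp at the median, against 6.08 and 361 bp in the shared peaks. The 579 PBS peaks had 4.06 and 122 bp, against 5.34 and 346 bp. An mRNA peak of the assigned gene lay elsewhere in the other list in 423 OVA cases (62.1%) and 373 PBS cases (64.4%), and no peak at all there for 174 (25.6%) and 139 (24.0%). Counted by gene, 1637 genes had an exon peak in both lists. In the OVA list alone 477 of 2114 genes (22.6%) had one, and in the PBS list alone 511 of 2148 (23.8%). Such a gene can still have a peak of another label in the other list. By peak, 18.3% of all OVA and 14.4% of all PBS mRNA peaks overlapped none of the other list.

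The peaks described next had the lowest p values among those of the OVA list alone. The peak of the class I histocompatibility gene H2-D1, in exon 2 of 8 at chr17:35263401-35263611, had a fold enrichment of 2.03 and a log10 p of -138. That of Gm11127, another gene of the same region, had 1.98, and reads of such closely related genes are hard to place. Dcstamp, which encodes a membrane protein needed for the fusion of macrophages and osteoclasts, had 4.72 over a peak of 2 blocks at chr15:39755031-39759359. The macrophage scavenger receptor gene Msr1 had 5.33 at chr8:39620044-39624295. Col6a5, a collagen VI chain gene, had 3.09 in exon 3 of 41, Vcan, which encodes the matrix proteoglycan versican, 4.78 in exon 8 of 15, and the serotonin receptor gene Htr2b 6.02 in exon 4 of 4 at chr1:86099350-86099825.

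The proliferation marker gene Mki67 supplied 2 of these 10 peaks, both in exon 12 of 14, with 4.86 at chr7:135697745-135698555 and 3.41 at chr7:135696308-135697597. In all it had 8 exon peaks in the OVA list with summed blocks of 7206 bp and 9 in the PBS list with 2413 bp. All 9 PBS peaks overlapped an OVA peak, and 4 of the 8 OVA peaks overlapped a PBS peak. The centromere motor gene Cenpe had 6 OVA peaks and 1 PBS peak, none of which overlapped a peak of the other list, and Cenpf, another kinetochore gene, had 7 and 5. On Mki67 the OVA list thus covered more bases than the PBS list did. Among all mRNA peaks, 18.3% of the OVA and 14.4% of the PBS list overlapped none of the other list.

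Of the 10 peaks of the PBS list alone with the lowest p values, 3 lay on a single gene. The lowest p was that of mt-Co2, a cytochrome c oxidase subunit gene, with a fold enrichment of 16.3 and a log10 p of -185. The peak of mt-Atp8, an ATP synthase subunit gene, had a fold enrichment of 13.4. Lmod2, which encodes an actin nucleator of heart sarcomeres, had 8.26 over 2 blocks at chr6:24598150-24603685. Titin (Ttn), the giant spring protein of sarcomeres, supplied 3 peaks, with 4.51 in exon 132 of 191 at chr2:76766447-76767018, 4.06 in exon 45 and 2.90 in exon 148. The others were Wrap73 (3.95), the guidance cue gene Sema3c (5.20), the extracellular protease gene Adamts1 (2.09) and 1700020L24Rik (3.64).

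Heart muscle markers were looked at beside the peaks of Lmod2 and Ttn. Of 8 such markers, 4 had an mRNA peak in the lists, namely Myh6, Tnnt2, Tnni3 and Ttn, and Nppa, Actc1 and Myl7 had no peak of any kind. Ttn had 7 exon peaks in the OVA list, all with a PBS partner, and 12 in the PBS list, of which 5 had an OVA partner. Among all mRNA peaks, 81.7% of the OVA and 85.6% of the PBS list had a partner. The wide PBS peak of Ttn at chr2:76749990-76751070 was the partner of several shorter OVA peaks, so the counts do not compare equal stretches. Myh6, a heart myosin gene, had 1 exon peak, in exon 36 of 39 of the PBS list with a fold enrichment of 2.25. The part of heart or other striated muscle in the differences between the lists was not tested.

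The gene lists described next were read against all 7085 genes with an mRNA peak in either list, of which 2178 (30.7%) had an exon peak under a firm gene name. Among genes of the type 2 response that drives allergic inflammation, 5 of the 18 with an mRNA peak (27.8%) had such an exon peak. The prostaglandin D receptor gene Ptgdr2, active on type 2 lymphocytes and eosinophils, had the strongest of the OVA list, in exon 3 of 3 at chr19:10940223-10940759, with 32.9 in the OVA and 18.4 in the PBS list. The chemokine receptor genes Ccr3 and Ccr4 had exon peaks in the PBS list, with 6.17 and 7.90, and the overlapping OVA peaks had the higher fold enrichments, 13.0 and 21.8, under another label.

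The gel-forming mucin genes Muc5ac and Muc5b both carried their peaks in the large central exon 31 of 49, Muc5b with another in exon 30 in the OVA list. On Muc5ac the OVA list had a weak peak at chr7:141807017-141807257 with 1.26 and no PBS partner, and a wide peak at chr7:141807556-141810731 with a fold enrichment of 10. Inside the wide peak the PBS list had 3 short peaks, with 2.11, 20.7 and 7.90, of which only that with 20.7, at chr7:141808005-141808485, passed an FDR of 0.05. These PBS peaks were 61, 481 and 122 bp wide, so most of the stretch of the wide OVA peak held no PBS peak. Muc5b had 8 OVA peaks from 2.03 to 7.33 and 7 PBS peaks from 1.94 to 10.9.

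Of the genes for writers, erasers and readers of m6A, 4 of the 12 with an mRNA peak (33.3%) had exon peaks, and each of these had them in both lists. Virma, the scaffold of the writer complex, had 10.4 in the OVA list at chr4:11508024-11514102 and 4.64 at chr4:11516941-11519369, and the PBS list had a single peak of 8.68 that overlapped both. The reader gene Ythdf1 had 9.23 and 8.25, and the demethylase genes Fto and Alkbh5 had 7.40 and 5.04, and 3.52 and 1.95. The share of genes was close to that of all genes.

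Giant cytoskeletal and scaffold genes had exon peaks in 19 of 22 cases (86.4%), with 86 peaks in the OVA and 95 in the PBS list. Their median fold enrichments of 5.22 and 4.79 were near the 5.23 and 5.04 of all firmly named exon peaks. On Syne1, which encodes a nuclear envelope linker, the strongest peaks lay in exons 76 and 77 of 146, with 16.6 and 13.5 in the OVA and 10.9 and 7.34 in the PBS list. Eppk1, the epithelial plakin gene, had 5 peaks in exon 2 of 2 in each list, the strongest with 16.7 and 16.3 in the OVA and 12.0 and 15.7 in the PBS list. Macf1, which links microtubules to actin, had 11.2 and 9.34 in exon 56 of 98. The presynaptic scaffold gene Pclo had 5 peaks in the OVA and 10 in the PBS list.

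Chromatin regulators had exon peaks in 25 of 32 cases (78.1%), with medians of 3.88 and 4.05. Nsd1, a histone methyltransferase gene, had a peak at the same place in both lists, chr13:55213446-55214167 in exon 2 of 21, with 18.8 in the OVA and 12.4 in the PBS list. Setd1b, too, had the same start and end in both, at chr5:123147694-123148743, with 10.4 and 6.54. Kmt2d had 7 OVA and 6 PBS peaks, the strongest in exon 49 of 55 with 11.8 and 9.17. Bcorl1, a corepressor gene, had the higher fold enrichments in the PBS list, 25.8 and 17.8 against 18.5 and 10.7. Of the 53 OVA peaks of this group 46 were shared, and of the 52 PBS peaks 50, beside 2052 of 2625 and 2151 of 2640 for all firmly named exon peaks.

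Genes of the extracellular matrix and giant cadherins had exon peaks in 13 of 19 cases (68.4%), with medians of 7.24 in the OVA and 3.97 in the PBS list. All firmly named exon peaks had medians of 5.23 and 5.04. The 36 OVA and 40 PBS peaks of this group do not cover the same stretches, so their medians are not a like-for-like comparison. Tnc, which encodes tenascin C, a matrix protein of tissue repair, had a peak of 1317 bp with a fold enrichment of 17.4 in exon 2 of 25 in the OVA list, at chr4:64016876-64018192. The PBS list had 2 shorter peaks inside it, with 3.90 and 7.74. Vcan had 5 OVA peaks, the widest with 12.0 at chr13:89688314-89690680, and 7 PBS peaks from 3.55 to 8.98. Tnxb, which encodes tenascin X, had the same peak of 1532 bp in both lists, at chr17:34671384-34673263, with 22.5 and 16.4. The planar polarity cadherin genes Celsr1 and Celsr2 had peaks in exon 1, with up to 10.7 and 7.93 in the OVA and 11.2 and 8.40 in the PBS list, and Celsr3 had peaks in the OVA list alone (11.3 and 12.8).

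Genes of DNA repair had exon peaks in 7 of 12 cases, with Msh6 as the strongest in the OVA list, followed by Brca1. In exon 10 of 23, its long central exon, Brca1 had OVA peaks with 13.2, without a PBS partner, and 8.41, which overlapped a PBS peak with 3.21. Mdc1, a scaffold at DNA breaks, had peaks in exons 5, 8 and 10 of 16 in both lists, with 12.9, 4.38 and 2.89 in the OVA and 10.7, 4.16 and 3.05 in the PBS list. Axonemal dynein genes of motile cilia had them in 5 of 8 cases, the strongest on Dnah9 in exon 20 of 69, with 11 and 6.60. Genes of insulin, growth factor and Notch signalling had them in 4 of 11 cases. Irs1, an insulin receptor substrate gene, had 10.5 and 7.93 in exon 1 of 2, and Irs2 had 8.28 and 13.9 in the PBS list inside an OVA peak of another label with 23.9.

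Intronless or nearly intronless regulator genes had exon peaks in 10 of 27 cases (37.0%), 5 genes in the OVA and 9 in the PBS list. Sox2, a transcription factor gene of the airway epithelium, had an OVA peak with 12.9 at chr3:34650613-34651061, and the PBS peak there had 17.1 and another label. The endothelial factor gene Sox18 had the same peak in both lists, at chr2:181670315-181670915, with 5.35 and 6.37. Foxc1, a forkhead factor gene, had 18.5 in the OVA list and 3 PBS peaks with 3.85, 22.7 and 8.88. The immediate early gene Jun had 2.57 and 2.15.

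Zinc finger genes, found by symbols that begin mainly with Zfp, Zscan, Zkscan or Zbtb, had exon peaks in 140 of 274 cases (51.1%). Their peaks lay in the last exon in 134 of 202 OVA cases (66.3%) and 129 of 188 PBS cases (68.6%), against 27.6% and 28.3% of all firmly named exon peaks. In most of these genes the last exon encodes the array of zinc fingers. The strongest besides Zfp97, Zfp27 and Zfp579 were Zfp189 with 41.6 in exon 4 of 4 in the OVA list (14.2 in the PBS list) and Zfp750, a gene of epithelial differentiation, with 35.9 (5.08). In the PBS list they were Zfp518a with 35.0 (16.6 in the OVA list) and Zfp72 with 35.0 (5.20). Zfp354a had 25.7 in both lists. The median fold enrichments of the group were 5.63 and 6.25.

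Clustered protocadherins, neural cell adhesion genes whose variable first exons encode most of the protein, had exon peaks in 35 of 46 cases (76.1%), all on chromosome 18. Their median fold enrichments, 12.8 in the OVA and 9.55 in the PBS list, were the highest of the gene lists. Of the 70 OVA peaks, 43 lay in single exons and 25 in first exons, and of the 62 PBS peaks 35 and 25. Pcdhb12 had 34.1 at chr18:37435858-37436929 in the OVA and 24.2 in the PBS list, and Pcdhb17 had 30 and 18.4. Pcdhga4 had the same peak in both lists, at chr18:37686883-37687779, with 25.6 and 23.6, and so did Pcdhb19, at chr18:37497800-37499480, with 24.9 and 22.1. The exon share of mRNA peaks on chromosome 18 was 33.6% in the OVA list (95% Wilson interval 29.4% to 38.2%), against 36.9% in the PBS list (32.3% to 41.8%), with a median fold enrichment of 8.85 and 6.94. Chromosome X had 34.4% and 36.7%, and chromosome 19 had the lowest shares, 22.4% and 22.7%.

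All mRNA peaks on the mitochondrial chromosome were exon peaks, 6 in the OVA and 11 in the PBS list, because its genes are annotated without introns or UTRs. The 6 OVA peaks all overlapped a PBS peak, and those PBS peaks had the higher fold enrichments. On mt-Nd5, a subunit gene of respiratory complex I, the values were 8.00 in the OVA and 16.5 in the PBS list, from MT:11741 in both. The other 5 PBS peaks, among them those of mt-Atp6 (12.0) and mt-Co3 (2.92), had no OVA counterpart. Of all PBS mRNA peaks, 14.4% overlapped no OVA peak. Neighbouring mitochondrial genes overlap or abut, so that some of these peaks cover more than 1 gene. The peak assigned to mt-Atp6, for example, has its annotated exon in the transcript of mt-Atp8.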

How the data were processed

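Peaks came from 3 IP and 3 input libraries per group. Before deposit, the authors trimmed reads (FASTP), aligned them to GRCm38 with Ensembl 101 genes (HISAT2), found peaks of IP against input (exomePeak) and labelled their regions (ChIPseeker). How the 3 mice of a group were combined is not given in the sources used here. As deposited, fold enrichment is a ratio, the caller's IP over input in a peak. The p and FDR columns are score values, which the authors' caller had put on a log10 scale before they were deposited. The deposited distances, widths and block numbers are in bp or counts. Members and gene lists were chosen with earlier results of these data known.

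Exonic blocks were compared between lists by an overlap of at least 1 bp, regardless of strand. Where several overlapped, the one with the most shared bases was taken as the best. Shares have 95% Wilson intervals and differences between peak classes of a list 95% Newcombe intervals. No p value was computed. RefSeq supplied gene biotypes and positions. Of 2986 OVA exon peaks whose called gene matched RefSeq, 99.0% overlapped its position on GRCm38. Coordinates are printed as deposited, and a block was read as spanning 1 bp more than its deposited size, both ends included. The lists do not state this convention, so the summed block widths and the overlaps rest on an assumption.

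Named genes had all 3 gene labels the same and were, per list, the 10 with the highest fold enrichment at an FDR under 0.05, the 10 with the lowest p without an overlap, the 3 highest per exon class and the 5 widest. Added to these were the 10 genes with most peaks in both lists, the 10 pairs with the largest percentile difference in each direction, and members of the gene lists. The examples with differing labels and the mitochondrial genes were chosen after their values were seen. The alternatives are given in the closing section. Python 3.11.15, numpy 2.4.6, scipy 1.17.1 and pandas 2.3.3 were used, and the overlap code was tested on simulated lists, with 0 of 431 overlapping pairs wrong.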

Additional observations from a re-analysis of the deposited data

How the results depend on the processing

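Numbers of exon peaks stayed within 1.5 times of the main count under each filter tried except the exon in the assigned transcript, which left 788 and 819. Requiring a fold enrichment of at least 2 raised the median to 6.16 (OVA) and 5.88 (PBS), by construction, and gave inner exon shares of 47.7% and 46.9%. With all 3 gene labels the same, inner exons held 52.99% and 52.4% and last exons 27.6% and 28.3%, and single exons 8.45% in the PBS list. With the exon in the assigned transcript itself, chosen after seeing the data, the OVA shares were 22.8% single, 23.1% first, 28.6% inner and 25.5% last, and the PBS shares 21.5%, 24.3%, 27.8% and 26.4%. An overlap of 50% of both peaks left 60.4% of OVA and 60.9% of PBS peaks shared, and 1256 and 1249 in a single list. Of all mRNA peaks, 68.7% and 71.0% were shared under this rule. Identical coordinates left 6.87% and 6.83% shared, and 2956 and 2975 in a single list. Of all mRNA peaks, 10.2% and 10.5% had identical coordinates. Counting only mRNA exon peaks of the other list gave 70.8% and 71.6%, with 908 PBS peaks in a single list. The cause of these shifts beyond the stricter rules was not tested. In all, 28 of the alternative values moved beyond counting error or 1.5 times and 62 did not. The lists hold no read counts, so the error of a fold enrichment is unknown, and leaving out a mouse was not possible. No paired analysis was possible because each group has a single list without values of single mice.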
